A study of Homo sapiens with 14 samples.

Results

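The comparison was between 2 clones of K562, an erythroleukaemia cell line with embryonic and fetal globin expression, both kept in DMSO, the solvent control. K18 is labelled TET2-/-. K01 carries no genotype in its labels and is taken as the TET2+/+ cells that the series text names. Each clone had 2 libraries of polyadenylated RNA, so the comparison used 4 of the 14 libraries of the series, chosen by their labels. The other K01 libraries, 2 each with 12.5 µM TETi76 (described in the series as a TET dioxygenase inhibitor), 100 µM ascorbate or both for 24 h, served to show the range of K01 values. The remaining libraries were of SIGM5, another leukaemia line, and were not used. The labels name 1 clone of each genotype, and K18 was given DMSO only, so the TET2 genotype and any other difference between the clones cannot be told apart. The labels number the replicates without saying whether they were separate cultures, and each p-value therefore measures only how far these libraries differ, which may be a technical spread.

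TET2 belongs to the TET dioxygenases, enzymes that use iron and 2-oxoglutarate to oxidise 5-methylcytosine, mostly in CG dinucleotides, as a step toward removing DNA methylation. Loss of TET2 is frequent in myeloid malignancy, where it is known for altered blood cell differentiation. Ascorbate keeps the enzymes' iron reduced. DNA methylation silences many germ cell genes in somatic cells, and K562 cells carry marks of both red cell and megakaryocyte precursors.

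Expression was given as fragments scaled to transcript length and library size (FPKM), and a log2 difference here is the mean of log2(FPKM + 1) in K18 minus that in K01, which understates the change of genes near 1 FPKM. Genes with at least 1 FPKM in at least 2 of the 10 K562 libraries were tested with limma in 1 fit of 5 groups, and a gene was called at a Benjamini-Hochberg adjusted p below 0.05 over the 12537 genes tested. All p-values below are such two-sided limma values with n = 2 libraries per clone. The smallest steps of 34 single-transcript genes gave the 4 libraries an approximate depth of between 7.03 and 9.24 M reads (M, mega). Replicates correlated at 0.9928 in K18 and 0.9923 in K01 on the log2 scale. All 12 K562 markers examined were at 1 FPKM or more in all 4 libraries. Of 9 lymphoid markers 7 were below 1 FPKM in all 4, CD2 and MS4A1 being listed at 0, but CD3D was at 12.1 to 17.3 FPKM. Of 10 stromal, endothelial and epithelial markers 9 were below 1 FPKM in all 4, LUM and CDH5 being listed at 0, but EPCAM was at 22.6 to 49.4 FPKM. Unless a gene is said to lose its call, each gene given as higher or lower kept it in all 4 fits that left out 1 of these libraries.

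TET2 itself was at 3.31 and 2.95 FPKM in K18 and at 1.99 and 2.40 FPKM in K01 DMSO. The K18 values lay above all 8 K01 libraries, in which the 6 treated ones ran from 1.16 to 2.21 FPKM, but the difference did not pass the test (log2 difference 0.37, SE 0.22, adjusted p = 0.314). A transcript level does not show whether the protein is made, so it does not check the TET2-/- label. TET1 (5.88 and 6.19 against 5.80 and 5.93 FPKM) and TET3 (6.02 and 6.70 against 6.69 and 6.54 FPKM), the other dioxygenases of the family, overlapped between clones. Of 24 tested genes of DNA methylation and demethylation, 1 was higher and 4 were lower in K18, beside 6.84% and 8.20% of all tested genes; 1 was higher and 1 or 2 were lower without 1 library. The higher one was APOBEC3B, a cytidine deaminase, at 24.3 and 27.5 against 11.7 and 12.4 FPKM (log2 difference 1.05, SE 0.14, adjusted p = 0.00129). GADD45A, a stress gene also linked to DNA demethylation, was lower at 48.8 and 47.9 against 103 and 94.2 FPKM (log2 difference -1.01, SE 0.13, adjusted p = 0.00112). The maintenance methyltransferase DNMT1 (62.3 and 59.7 against 71.9 and 73.5 FPKM) and the de novo methyltransferase DNMT3A (4.27 and 4.73 against 7.64 and 6.50 FPKM) were called lower, and both lost the call in each of the 4 fits that left out a library. Their K18 values lay inside the range of the 8 K01 libraries. DNMT3B, another de novo methyltransferase, was lower at 19.9 and 19.7 against 27.4 and 26.5 FPKM (adjusted p = 0.0076) and below all 8 K01 libraries, and kept the call in 2 of the 4 fits.

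Over all genes, 858 were called higher in K18 and 1028 lower, together 15% of those tested. These shares, 6.84% higher and 8.20% lower, are the background for each list count. At least 2-fold differences were called for 314 genes higher (2.50%) and 190 lower (1.52%). The size of the call list depended on having both replicates: leaving out 1 library left 350 to 451 genes higher and 433 to 525 lower. Counts of list members without 1 library are to be read against these smaller totals. Most of the differences were modest, with a median size of 0.62 on the log2 scale among called genes. K01 under other treatments covered part of this range. Of the 858 higher genes, 624 (72.7%) had both K18 libraries above all 8 K01 libraries, and 574 of the 1028 lower genes (55.8%) had both below. Among the genes called at least 2-fold, 277 of 314 higher and 159 of 190 lower ones lay outside all K01 values. All 1886 called genes already had no overlap between K18 and K01 DMSO, so these shares are in part built in by the call. The share over all tested genes was not counted, and no specificity for the clone is read from them.

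Among the genes with the largest differences, most were close to silent in 1 clone. SCG3, a secretory granule protein of neuroendocrine cells, was at 104 and 107 FPKM in K01 and at 4.34 and 4.14 FPKM in K18. CALB1, the calcium-binding protein calbindin, was at 21.9 and 20.7 against 1.05 and 1.93 FPKM (log2 difference -3.18, SE 0.16). Both K18 libraries lay below every K01 library for SCG3 and CALB1. LDOC1, SH3GL3, which encodes an endophilin, and THRB, a thyroid hormone receptor, had log2 differences of -2.94, -2.82 and -2.83. In the other direction, TEX19, a germ cell gene, was at 16.5 and 18.5 FPKM in K18 and at 0.299 and 0.551 FPKM in K01 (log2 difference 3.70, SE 0.32). ALOX5, the 5-lipoxygenase that starts leukotriene synthesis, was at 14.7 and 12.9 against 0.688 and 0.624 FPKM (log2 difference 3.16, SE 0.27). PRSS57, a neutrophil granule serine protease, was at 14.8 and 11.8 against 1.22 and 0 FPKM. These 3 genes were above all K01 libraries in both K18 libraries. The read-through loci INO80B-WBP1 and URGCP-MRPS24 also stood among the lower genes, but they share exons with their parent genes and their values are uncertain; URGCP-MRPS24 lost its call in 3 of the 4 fits without a library.

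**Figure D1:**
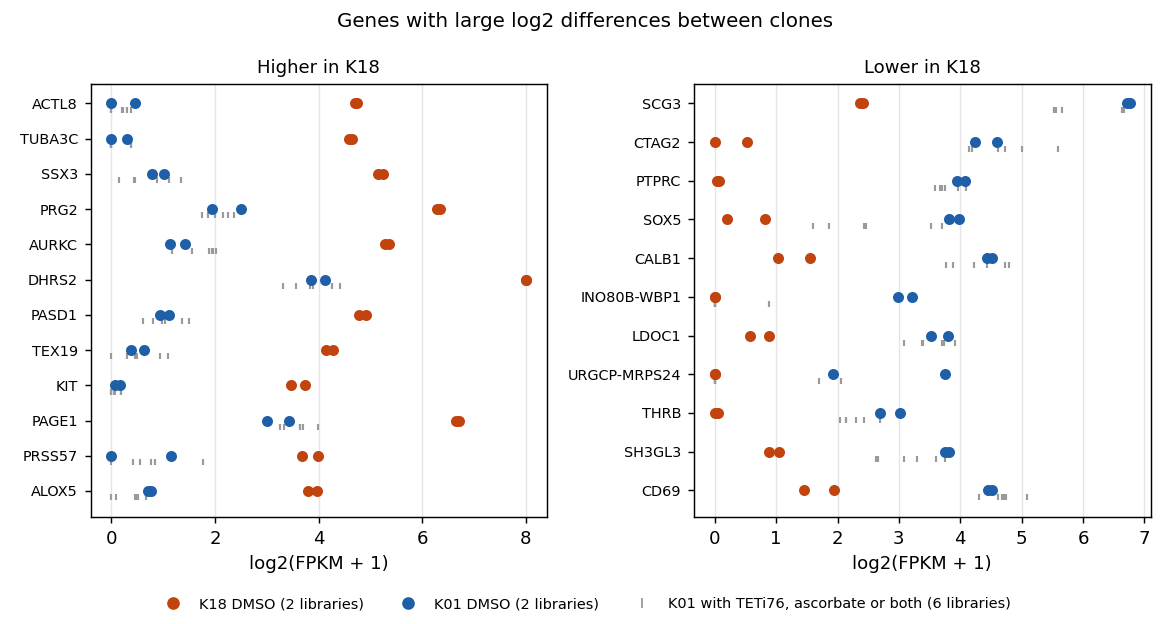
Expression on the log2(FPKM + 1) axis of 12 genes with a strongly higher and 11 with a strongly lower log2 difference, as 1 point per library. K18 libraries (orange) and K01 DMSO libraries (blue) do not overlap for any gene shown. Treated K01 libraries (grey ticks) lie near K01 DMSO for most genes, while for INO80B-WBP1 and URGCP-MRPS24 some reach the K18 values.

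Some genes were listed at 0 in both libraries of 1 clone and at 1 FPKM or more in both of the other. There were 19 such genes at 0 in K01 and 11 at 0 in K18. IL1RL1, the receptor for interleukin 33 found on mast cells and eosinophils, was at 6.99 and 6.28 FPKM in K18 and listed at 0 in both K01 DMSO libraries, with at most 0.356 FPKM under treatment. ACPP, the prostatic acid phosphatase, was at 5.98 and 5 FPKM in K18 and listed at 0 in K01. The pseudogene SCGB1B2P, at 5.83 and 4.56 FPKM in K18, was listed at 0 in all 8 K01 libraries. In the reverse direction, TRDN, which encodes the muscle calcium-release protein triadin, was at 4.87 and 4.97 FPKM in K01 and listed at 0 in K18. EFEMP1 and EGFLAM, both extracellular matrix proteins, were at 2.29 and 2.73 FPKM and at 2.69 and 1.96 FPKM in K01 and listed at 0 in K18. At this depth a value of 0 does not show that the gene is silent, and no fold is given against it.

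Several abundant transcripts differed by more than 2-fold. DHRS2, a short-chain dehydrogenase/reductase, was at 254 and 257 FPKM in K18 and at 13.5 and 16.5 FPKM in K01, a 17-fold difference of the means (log2 difference 4.01, SE 0.12, adjusted p = 1.56e-07). APOE, the lipid-carrying apolipoprotein E, was at 312 and 315 against 48.4 and 52.1 FPKM, 6.23-fold by the means. Its neighbour on chromosome 19, APOC1, was at 375 and 341 against 92.4 and 95.5 FPKM (log2 difference 1.92, SE 0.14). The 3 genes exceeded every K01 library, whose highest values were 20.2, 68.7 and 161 FPKM. The 24 tested genes nearest to APOE had a median log2 difference of 0.05, with 1 called higher and 1 lower. Of 26 tested interferon and antigen presentation genes 5 were higher and 4 lower (2 to 4 higher and 2 or 3 lower without 1 library). Over all tested genes 6.84% were higher and 8.20% lower. Among the interferon genes, IFITM2, which restricts virus entry, was at 283 and 251 against 90.3 and 86.4 FPKM, and its relative IFITM3 was lower at 84.7 and 102 against 218 and 194 FPKM. These paralogs are nearly identical in sequence, so reads may have been shared between them. FTL, the ferritin light chain, was higher by 0.36 and the chaperone HSPA8 by 0.37 on the log2 scale, both inside the range of treated K01 libraries. Of the cytosolic ribosomal protein genes named by size of the FPKM difference, RPL38 (log2 difference -0.49) and RPL4 (-0.30) were lower and RPS3A (0.32) was higher. RPLP2 (-0.24) and RPS16 (-0.27) were lower too, but lost the call under quantile normalization.

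Cancer-testis genes, which are normally expressed in male germ cells and often in tumours, included members that were higher in K18. Of 66 members in the table, 31 had enough expression to be tested. Among these 14 were higher and 1 was lower, beside 6.84% and 8.20% of all tested genes. Their median log2 difference was 0.48. All 14 were above every K01 library in both K18 libraries, as were 72.7% of all genes called higher. Of genes called at least 2-fold higher, which 12 of the 14 were, 88.2% were above. The call builds in part of this. Leaving out 1 library left 11 to 13 members higher and 1 lower. Of the 31 tested members 4 (ACTL8, DDX53, TKTL1 and TUBA3C) reached 1 FPKM in fewer than 2 K01 libraries and were tested because of their K18 values. A filter on expression favours members that are high in 1 clone, so the tested members do not stand for all 66. The MAGE genes of the X chromosome, antigens presented to T cells, were split. MAGEA1 was at 67.9 and 64.7 FPKM in K18 and at 9.99 and 12 FPKM in K01 (log2 difference 2.49, SE 0.24, adjusted p = 0.000239). MAGEB1 (26 and 25.4 against 6.55 and 7.07 FPKM), MAGEB2 (59.8 and 59.9 against 26.1 and 28.6 FPKM) and MAGEC1 (30.2 and 34.6 against 13.9 and 12.1 FPKM) were also higher. MAGEA3, MAGEA6 and MAGEA12 were between 28.1 and 38.8 FPKM in all 4 libraries and did not pass the test. The lower member, CTAG2, the antigen LAGE-1, was at 0.437 and 0 FPKM in K18 and at 17.9 and 23.2 FPKM in K01 (log2 difference -4.16, SE 0.28), below all K01 libraries. SSX1 was at 104 and 100 against 55.7 and 55.6 FPKM, while SSX3 was at 34.6 and 36.9 against 1.02 and 0.733 FPKM. PAGE1 was at 104 and 99.6 against 6.97 and 9.75 FPKM, and PAGE5 overlapped at 154 and 132 against 135 and 117 FPKM. PASD1, a PAS-domain antigen, was at 29.2 and 26.5 against 0.920 and 1.16 FPKM. PRAME, the most abundant member, was at 764 and 753 against 788 and 778 FPKM and did not pass the test. TUBA3C, a testis alpha-tubulin, was at 24.1 and 22.9 FPKM in K18 with its near-identical copy TUBA3D below 0.51 FPKM in all 4 libraries. Members of the MAGE, SSX, PAGE and TUBA3 families share sequence, and the split of reads between copies is uncertain.

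CG dinucleotides are the sites on which TET enzymes act, and the 250 bases upstream of the start are shown for the genes with large differences that RefSeq promoter windows (build GRCh38.p14) hold; cytosine methylation was not measured here. Sequences run 5′ to 3′ on the gene's strand, with each CG in capitals. The first 4 genes are cancer-testis genes higher in K18, KIT is a stem cell factor receptor also higher in K18, and PTPRC and SCG3 were lower.
ACTL8, chr1:17755083-17755332, plus strand: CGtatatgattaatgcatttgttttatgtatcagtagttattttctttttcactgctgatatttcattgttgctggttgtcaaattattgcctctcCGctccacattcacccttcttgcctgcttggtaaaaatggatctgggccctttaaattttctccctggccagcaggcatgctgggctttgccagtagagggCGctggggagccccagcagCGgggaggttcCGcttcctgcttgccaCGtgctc
AURKC, chr19:57230773-57231022, plus strand: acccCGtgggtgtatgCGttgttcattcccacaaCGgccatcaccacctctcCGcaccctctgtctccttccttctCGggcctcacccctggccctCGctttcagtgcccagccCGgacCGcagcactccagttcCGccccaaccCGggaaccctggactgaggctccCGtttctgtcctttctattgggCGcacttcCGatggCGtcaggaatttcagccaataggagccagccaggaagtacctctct
TUBA3C, chr13:19181825-19182074, minus strand: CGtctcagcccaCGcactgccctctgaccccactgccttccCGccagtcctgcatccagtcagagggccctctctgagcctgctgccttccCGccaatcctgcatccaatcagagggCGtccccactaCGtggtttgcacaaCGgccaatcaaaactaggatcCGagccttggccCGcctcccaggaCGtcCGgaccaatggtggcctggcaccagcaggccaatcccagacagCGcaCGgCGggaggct
PAGE1, chrX:49695985-49696234, minus strand: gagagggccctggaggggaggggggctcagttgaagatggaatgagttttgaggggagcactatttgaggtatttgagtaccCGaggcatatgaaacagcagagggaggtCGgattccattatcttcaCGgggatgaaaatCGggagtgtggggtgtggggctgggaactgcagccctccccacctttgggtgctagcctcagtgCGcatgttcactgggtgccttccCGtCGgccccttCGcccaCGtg
KIT, chr4:54657707-54657956, plus strand: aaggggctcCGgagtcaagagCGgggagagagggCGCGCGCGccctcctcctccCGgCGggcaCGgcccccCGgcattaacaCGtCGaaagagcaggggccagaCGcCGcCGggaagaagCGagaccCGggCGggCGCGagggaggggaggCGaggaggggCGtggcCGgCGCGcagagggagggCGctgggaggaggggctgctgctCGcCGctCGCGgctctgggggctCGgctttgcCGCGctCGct
PTPRC, chr1:198638790-198639039, plus strand: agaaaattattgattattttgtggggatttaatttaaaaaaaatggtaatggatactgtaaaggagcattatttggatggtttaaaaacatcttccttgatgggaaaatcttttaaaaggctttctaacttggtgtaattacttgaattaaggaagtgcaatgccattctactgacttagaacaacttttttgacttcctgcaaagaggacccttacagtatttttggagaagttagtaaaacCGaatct
SCG3, chr15:51681253-51681502, plus strand: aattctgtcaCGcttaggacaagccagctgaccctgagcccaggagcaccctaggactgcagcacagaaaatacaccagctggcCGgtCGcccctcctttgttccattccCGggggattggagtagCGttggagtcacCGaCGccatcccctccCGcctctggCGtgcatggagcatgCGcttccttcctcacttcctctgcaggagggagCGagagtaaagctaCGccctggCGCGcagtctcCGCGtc
These 7 upstream stretches differ widely in CG number. ACTL8, an actin-like testis gene that was at 25.0 and 25.7 FPKM in K18 and at 0.376 and 0 FPKM in K01, has 6. AURKC, a meiotic aurora kinase at 38.1 and 39.8 against 1.19 and 1.69 FPKM, and TUBA3C each have 14, and PAGE1 has 9. KIT, at 10.1 and 12.4 FPKM in K18 and at 0.125 and 0.0549 FPKM in K01, has 34 in a stretch of 76.4% G and C. PTPRC, at 0.0258 and 0.0452 against 15.9 and 14.5 FPKM, has 1, and SCG3 has 16. Genes that were higher and genes that were lower in K18 thus both included upstream stretches with many and with few CG dinucleotides. Of the 31 tested cancer-testis genes 27 matched a window, with a median of 9 CG and a range of 3 to 19; over all 35116 RefSeq windows the median was 11 and the middle part of the distribution ran from 3 to 23. Those windows include genes that were not tested, so the sets are not alike and no likeness is read from the medians. A comparison with all tested genes is void, because 78.1% of them matched a window, under the minimum of 80% set for such a check.

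Globins and other red cell genes were lower in K18. Over all tested genes 8.20% were lower and 6.84% higher. Of 10 tested globin genes 7 were lower and 0 higher (median log2 difference -0.56), and of 22 tested red cell membrane genes 15 were lower and 0 higher (median -0.51). Without 1 library, 5 to 7 globins and 8 to 11 membrane genes were lower. HBE1, the embryonic beta-like globin and the most abundant globin in K01, was at 1233 and 1255 FPKM in K18 and at 4472 and 4787 FPKM in K01, a 3.72-fold difference of the means (log2 difference -1.89, SE 0.04, adjusted p = 1.5e-08). The alpha globins were lower by less, HBA1 at 237 and 233 against 335 and 361 FPKM and HBA2 at 80.1 and 94.0 against 146 and 182 FPKM. The adult delta globin HBD was at 1.72 and 3.19 against 12.2 and 13.6 FPKM, and the beta-globin pseudogene HBBP1 at 21.5 and 27.2 against 70.3 and 58.6 FPKM. The fetal gamma globins were less clear: HBG1, at 769 and 735 against 918 and 1344 FPKM, lost its call in 3 of 4 fits without a library, and HBG2, at 1520 and 1355 against 1553 and 2053 FPKM, did not pass the test (adjusted p = 0.095). HBZ, the embryonic zeta globin, was called lower at 787 and 737 against 1047 and 1094 FPKM and lost the call in each of the 4 fits. HBG1 and HBG2, and HBA1 and HBA2, are near-identical pairs whose reads can be assigned to either copy. AHSP, the chaperone of alpha globin, did not pass the test at 8.48 and 11.7 against 7.52 and 12.1 FPKM. In RNA from a whole culture, fewer cells with a transcript and less of it per cell cannot be told apart.

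Lower red cell membrane genes included those of the Rh complex. RHAG, the Rh-associated glycoprotein, was at 113 and 103 FPKM in K18 and at 296 and 300 FPKM in K01 (log2 difference -1.46, SE 0.06, adjusted p = 1.16e-06). RHCE was at 2.29 and 2.57 against 14.7 and 9.89 FPKM and RHD at 1.99 and 3.03 against 8.98 and 9.14 FPKM; these are near-identical paralogs. XK, the Kell-complex membrane protein, was at 4.14 and 3.51 against 12.1 and 11.4 FPKM. Both K18 libraries were below all 8 K01 libraries for each of these 4 genes. The glycophorin GYPB (24.8 and 12.8 against 51.8 and 70.6 FPKM, log2 difference -1.71) was lower, with a wide spread in K18, and it too has close paralogs. Members that did not pass the test included KEL (26.6 and 25.5 against 21.3 and 26.5 FPKM), EPOR, the erythropoietin receptor (9.42 and 11.8 against 8.81 and 9.81 FPKM), and ICAM4 (62.9 and 66.4 against 56.3 and 44.6 FPKM). Of the 15 lower members, 9 were below all 8 K01 libraries, beside 55.8% of all genes called lower.

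The letters AGATAA, a form of the site bound by GATA factors, were searched on both strands in the RefSeq windows from 250 bases before to 50 after the start. They occurred in 10.3% of all 35116 windows. Of the 22 tested membrane genes 16 matched a window, too few for a share of the list to be read; examples from lower members are given with the motif in capitals, 5′ to 3′ on the strand named.
GYPB, chr4:144019369-144019394, minus strand: tgggcctggaAGATAAcagctagtag
GYPE, chr4:143905589-143905614, minus strand: tgggcctggaAGATAAcagctagcag
SPTB, chr14:64879934-64879959, minus strand: gtccctcctcAGATAAtgttatttat
RHD, chr1:25272423-25272448, plus strand: ttgcagcctgAGATAAggcctttggc
RHCE, chr1:25420886-25420911, minus strand: ttgcagcctgAGATAAggcctttggc
The RHD and RHCE stretches are the same sequence at different places on chromosome 1, and those of GYPB and GYPE on chromosome 4 differ little, which shows how alike these paralogs are. SPTB is beta spectrin, at 19.3 and 18 against 29 and 27.9 FPKM, a call that held in 2 of the 4 fits without a library. The same letters also stand in the windows of KEL, EPOR and ICAM4, which were not called.

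Transcription factors of the erythroid programme did not move in 1 direction: 4 of 19 were higher and 4 lower, and 1 to 3 were higher and 2 lower without 1 library. For this list and those that follow, the shares of all tested genes were 6.84% higher and 8.20% lower. GATA2, a stem and progenitor factor, was at 79.3 and 85.1 against 54.2 and 49.6 FPKM (log2 difference 0.65, SE 0.08, adjusted p = 0.00067). NFE2, an erythroid and megakaryocyte factor, was at 109 and 113 against 151 and 153 FPKM, and NR2F2 at 15.3 and 16.6 against 22.7 and 25.7 FPKM. SOX6, a repressor of embryonic globin in definitive red cells, was at 0.170 and 0.0618 against 1.49 and 1.06 FPKM and lost its call in all 4 fits without a library. Genes of haem synthesis and iron were divided, 5 of 24 higher and 7 lower (2 to 4 higher and 2 or 3 lower without 1 library). The transferrin receptor TFRC (116 and 114 against 88.8 and 85.8 FPKM) was higher, and GLRX5, which serves iron-sulphur cluster assembly (59.9 and 57.1 against 84.1 and 94.5 FPKM), was lower. Among 14 tested megakaryocyte genes, 3 were higher and 5 lower (1 or 2 higher and 4 or 5 lower without 1 library). ITGA2B, the platelet integrin alpha IIb, was at 10.3 and 8.73 against 2.55 and 2.35 FPKM, whereas the growth factor ANGPT1 was at 10.9 and 12 against 22.9 and 23.4 FPKM. GP1BB, a platelet adhesion receptor chain, was at 26.2 and 27.1 against 61.3 and 89.5 FPKM, an uncertain value because a read-through locus shares its exons.

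**Figure D2:**
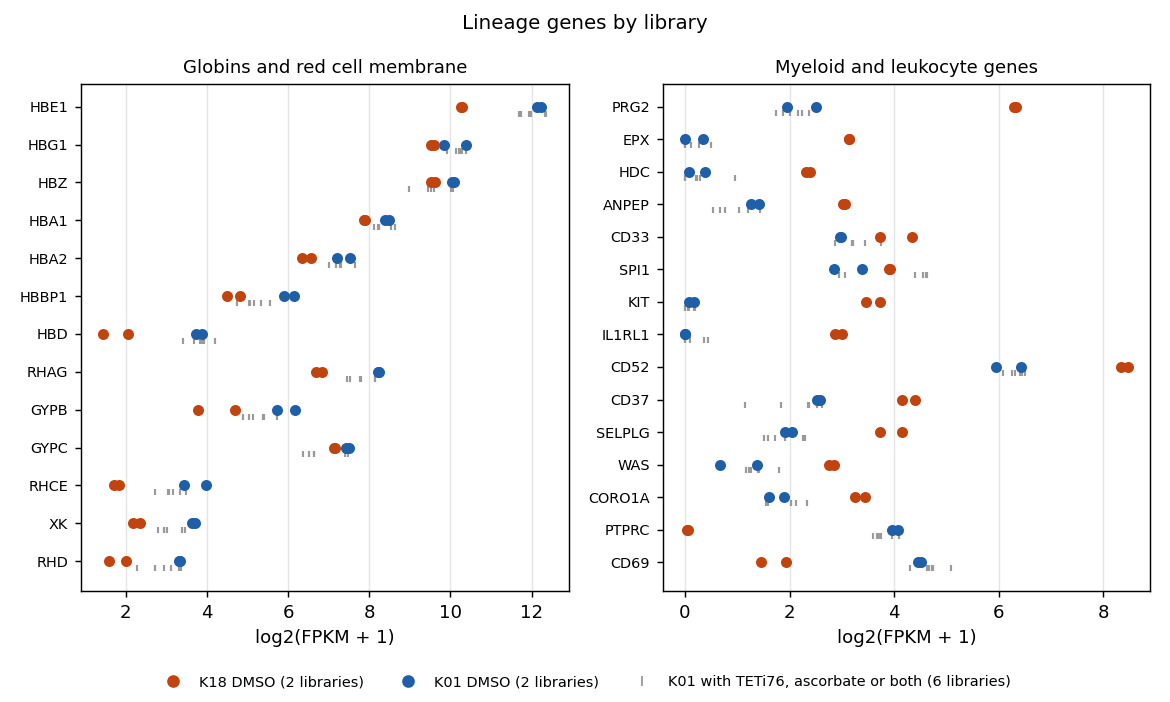
Expression on the log2(FPKM + 1) axis of 13 globin and red cell genes (left) and 15 myeloid and leukocyte genes (right), 1 point per library. K18 libraries (orange) lie below K01 DMSO (blue) for all genes on the left, and above it on the right except for PTPRC and CD69. Grey ticks are treated K01 libraries. Only chosen called genes are shown, so the shared direction follows in part from the choice. Among the genes not described in the text, GYPC kept its call in 1 of the 4 fits without a library and CD37 in 0. Members that were not called, among them AHSP, KEL, EPOR, ICAM4 and LYZ, are left out. ITGA5, a leukocyte adhesion gene called lower, is left out too, and kept its call in 1 of the 4 fits.

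Some myelomonocytic and leukocyte genes were higher in K18. Of 41 listed myelomonocytic genes, 21 could be tested; 7 were higher, beside 6.84% of all tested genes, and 0 lower, with a median log2 difference of 0.72. Without 1 library 4 to 6 were higher. Of the 21 tested genes 7, EPX and HDC among them, reached 1 FPKM in fewer than 2 K01 libraries and so were tested because of their K18 values, which raises the count and the median. The calls that held in every such fit were those of PRG2 and EPX, the granule proteins of eosinophils, HDC, which makes histamine, and ANPEP, the surface peptidase CD13. PRG2 was at 77.4 and 79.9 against 4.69 and 2.85 FPKM, and EPX at 7.85 and 7.76 against 0 and 0.271 FPKM. HDC was at 4.22 and 4 against 0.298 and 0.0559 FPKM, and ANPEP at 7.29 and 7.15 against 1.39 and 1.66 FPKM. All 4 genes were above the 8 K01 libraries and alike in both K18 libraries. SPI1, the myeloid factor PU.1 (14.1 and 13.9 against 9.49 and 6.23 FPKM), and CD33 (19.3 and 12.2 against 6.82 and 6.95 FPKM) were called higher but lost the call in 3 of 4 fits. Neutrophil granule genes were raised in 1 K18 library: MPO was at 0.529 and 4.20 FPKM, ELANE at 0.170 and 4.01 FPKM, PRTN3 at 0.154 and 5.10 FPKM and CTSG at 0 and 3.71 FPKM in K18 replicates 1 and 2, and at most 1.56 FPKM in K01 DMSO. None of the 3 that could be tested was called. LYZ, lysozyme, did not pass the test at 22.0 and 28.8 against 35.1 and 30.8 FPKM. The summed level of 8 defining myelomonocytic markers was 38.0 and 52.1 FPKM in K18 and 46.3 and 37.9 FPKM in K01. The sums overlapped between clones, but most of each came from LYZ and SPI1, whose values went in opposite directions. The overlap therefore does not show that the single markers were alike. CD14 was at most 0.078 FPKM.

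Of 27 tested genes of leukocyte signalling and adhesion, 12 were higher and 3 lower (median 0.36); 6 to 8 were higher and 2 to 3 lower without 1 library. The shares of all tested genes were 6.84% higher and 8.20% lower. CD52, a small glycosylphosphatidylinositol-anchored antigen of lymphocytes and monocytes, was at 324 and 356 against 60.7 and 85.2 FPKM (log2 difference 2.22, SE 0.15, adjusted p = 3.15e-05). SELPLG, the ligand of P-selectin, was at 12.2 and 16.7 against 2.77 and 3.12 FPKM. VAV1, a guanine nucleotide exchange factor, was higher at 11 and 11.1 against 3.97 and 4.14 FPKM, WAS at 5.72 and 6.26 against 1.59 and 0.587 FPKM, and CORO1A at 8.51 and 9.84 against 2.70 and 2.03 FPKM. The tetraspanin CD53, at 83.3 and 77.8 against 36.1 and 46.0 FPKM, was within the range of treated K01 libraries, which reached 90.9 FPKM. CD69, an early activation antigen, went the other way at 1.75 and 2.84 against 22.0 and 20.9 FPKM, as did the phosphatase CD45 encoded by PTPRC, whose values stand beside its sequence above. RAC2, LCP1 and ICAM3, other leukocyte genes, did not pass the test, with log2 differences of 0.14, 0.13 and 0.10. Of 28 listed stem and progenitor genes 10 could be tested. KIT was higher, but it reached 1 FPKM in fewer than 2 K01 libraries and was tested because of its K18 values. MEIS1, a homeodomain factor (1.65 and 0.684 against 5.44 and 4.58 FPKM), and EPCAM (22.6 and 22.6 against 41.7 and 49.4 FPKM) were lower.

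**Figure D3:**
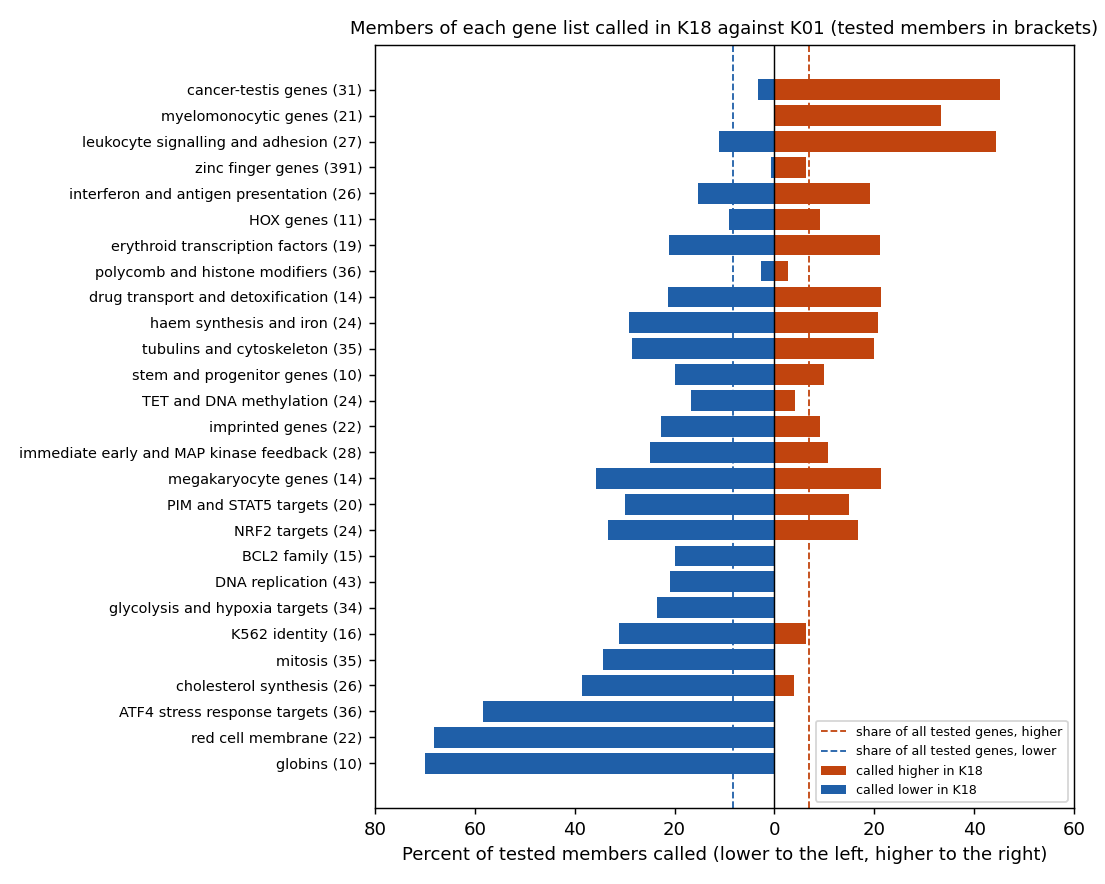
Percent of tested members called higher (orange, to the right) and lower (blue, to the left) in K18 for each list with at least 10 tested members, with dashed lines at the shares of all tested genes (6.84% higher and 8.20% lower). Cancer-testis and leukocyte lists reach 45.2% and 44.4% higher, and globins reach 70.0% lower.

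Targets of ATF4, the transcription factor of the amino acid and integrated stress response, were lower in K18: 21 of 36 tested members were lower and 0 higher (median log2 difference -0.43), and 14 or 15 were lower without 1 library. Over all tested genes 8.20% were lower and 6.84% higher. PSAT1, an enzyme of serine synthesis, was at 87.3 and 76.8 against 155 and 156 FPKM (log2 difference -0.92, SE 0.09, adjusted p = 0.000207). The glycine transporter SLC6A9 was at 8.76 and 9.75 against 20.4 and 20.7 FPKM, and the arginine transporter SLC7A1 at 21.4 and 20.7 against 34.2 and 33.5 FPKM. Of the aminoacyl-tRNA synthetases in the list, GARS was at 142 and 138 against 218 and 222 FPKM, WARS at 131 and 137 against 198 and 195 FPKM and AARS at 148 and 145 against 210 and 200 FPKM, while MARS, at 117 and 112 against 153 and 161 FPKM, kept its lower call in 2 of the 4 fits without a library. ATF4 itself was at 298 and 275 against 387 and 388 FPKM. DDIT3, which encodes the stress factor CHOP, did not pass the test at 92.8 and 105 against 98.7 and 77.0 FPKM, nor did CEBPB at 16.7 and 17.4 against 17.4 and 16.3 FPKM. Of the 21 lower members, 2 (ATF3 and SLC3A2) were below all 8 K01 libraries, beside 55.8% of all genes called lower. For the others at least 1 treated K01 library was below a K18 library, and the lowest reached 19.5 FPKM for PSAT1 and 3.62 FPKM for SLC6A9.

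The letters TGATGNAA, the core of the element bound by ATF4 with its C/EBP partners, stood in 3.62% of all 35116 RefSeq windows. They occurred in 8 of the 26 ATF4 list members that matched a window; since 72.2% of the tested members matched, no share of the list is read from this. The 5 sites of members whose lower call held in every fit without a library are shown with the motif in capitals, 5′ to 3′ on the strand named.
ATF3, chr1:212565206-212565233, plus strand: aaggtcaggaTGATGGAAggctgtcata
SLC7A1, chr13:29595664-29595691, minus strand: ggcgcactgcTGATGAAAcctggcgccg
SLC3A2, chr11:62881726-62881748, minus strand: ggagcTGATGTAAggagtcctgc
SLC1A5, chr19:46784894-46784921, minus strand: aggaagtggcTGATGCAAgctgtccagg
AARS, chr16:70289676-70289703, plus strand: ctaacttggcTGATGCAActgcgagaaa
SLC1A5, a glutamine transporter, was at 193 and 209 against 306 and 284 FPKM, and SLC3A2, the heavy chain of amino acid transporters, at 118 and 124 against 162 and 183 FPKM. CHAC1 and ASNS, which also hold the letters, lost their lower call in all 4 fits without a library, and CEBPG, which holds them too, was not called (log2 difference -0.39, adjusted p = 0.0601).

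Metabolic and cell cycle lists held lower members with smaller differences. Their counts stand beside 8.20% lower and 6.84% higher over all tested genes. In cholesterol synthesis 10 of 26 were lower and 1 higher (4 to 8 lower without 1 library). ACAT2 was at 87.9 and 80 against 126 and 140 FPKM, and FDFT1, squalene synthase, at 103 and 103 against 157 and 156 FPKM. In glycolysis and hypoxia 8 of 34 were lower and 0 higher (3 to 7 without 1 library), among them the glucose transporters SLC2A1 (35.2 and 35.9 against 52.6 and 49.1 FPKM) and SLC2A3 (23.2 and 25.1 against 35.6 and 41.7 FPKM). Mitosis genes were lower for 12 of 35 and higher for 0 (8 or 9 without 1 library). The mitotic kinase CDK1 was at 79.2 and 75.4 against 124 and 125 FPKM, a 1.61-fold difference of the means, and the kinetochore gene NDC80 at 37.6 and 36.2 against 61.5 and 67.6 FPKM. Of 43 DNA replication genes 9 were lower and 0 higher (2 to 4 without 1 library), with PRIM1, the primase, at 50.3 and 52.8 against 76.0 and 76.3 FPKM. EGR1, an immediate early factor, was at 10.6 and 8.88 against 40.9 and 38.3 FPKM, and the treated K01 libraries were higher still at 64.6 to 88.8 FPKM. The JAK and STAT feedback gene CISH was at 22.0 and 21.3 against 43.3 and 48.6 FPKM, whereas STAT5A was higher at 155 and 152 against 120 and 109 FPKM. Targets of NRF2 were divided, with 8 of 24 lower and 4 higher. Among the lower ones were the aldo-keto reductases AKR1C1 (16.6 and 15.4 against 33.2 and 36.3 FPKM) and AKR1C2 (2.85 and 2.11 against 13.3 and 12.2 FPKM), which are near-identical copies.

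Lists linked to chromatin differed among themselves. Of 36 polycomb and histone-modifying genes 1 was higher and 1 lower, beside 6.84% and 8.20% of all tested genes. The higher one was the histone demethylase KDM1A (99.8 and 108 against 70.4 and 71.0 FPKM), and the lower one RBBP7, a histone-binding subunit (85.2 and 78.0 against 118 and 119 FPKM). Of 11 tested HOX genes 1 was higher and 1 lower, and neither call held in any fit without a library. Clustered protocadherins, 57 in the table, had no member expressed enough to be tested. Zinc finger genes, many of them repressors of repeat elements, were higher for 25 of 391 and lower for 3, a higher share of 6.39% near the background of 6.84%; without 1 library 7 to 10 were higher and 0 to 2 lower. Their median log2 difference was 0.14, with 273 of 391 above 0, against 6264 of all 12537 genes. Of these 391 genes 24 reached 1 FPKM in fewer than 2 K01 libraries and so were tested because of their K18 values. This raises the median and the count above 0, so neither stands for the family. Of 22 imprinted genes 2 were higher and 5 (22.7%, beside 8.20% of all tested genes) were lower; without 1 library 1 was higher and 2 or 3 lower, and 3 calls held in every such fit. H19, a maternally expressed noncoding RNA, was at 0 and 0.305 against 5.08 and 4.21 FPKM, DIRAS3 at 6.78 and 7.43 against 24.4 and 19.3 FPKM, and NAP1L5 at 3.84 and 5.98 against 0.532 and 0.233 FPKM. NAP1L5 also reached 1 FPKM in fewer than 2 K01 libraries and was tested because of its K18 values.

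Differences also followed gene order along chromosomes, taken for 12221 tested genes from RefSeq. Chromosome 4, which carries TET2 and KIT, had a median log2 difference of 0.19 with 58 of 391 tested genes higher and 19 lower, and chromosome 7 a median of 0.13 with 75 of 587 higher and 28 lower. The called shares were 14.8% higher and 4.86% lower on chromosome 4 and 12.8% and 4.77% on chromosome 7. Over all tested genes they were 6.84% and 8.20%. Each of the other chromosomes had a median between -0.09 and 0.06. When each chromosome was divided into 4 equal parts by gene number, the first part of chromosome 4 had a median of -0.07 and the following 3 had 0.22, 0.31 and 0.26. On chromosome 7 the parts had medians of -0.01, 0.20, 0.27 and 0.11. The 84 parts of the other chromosomes ran from -0.21 to 0.13. The shift of chromosome 4 was seen in both K18 libraries, at 0.25 and 0.19 relative to the mean of all K01 libraries, while the 2 K01 DMSO libraries were at 0.04 and 0.07 and the 6 treated K01 libraries at -0.03 to 0.01. DNA copy number was not measured, and its part in these differences was not tested.

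**Figure D4:**
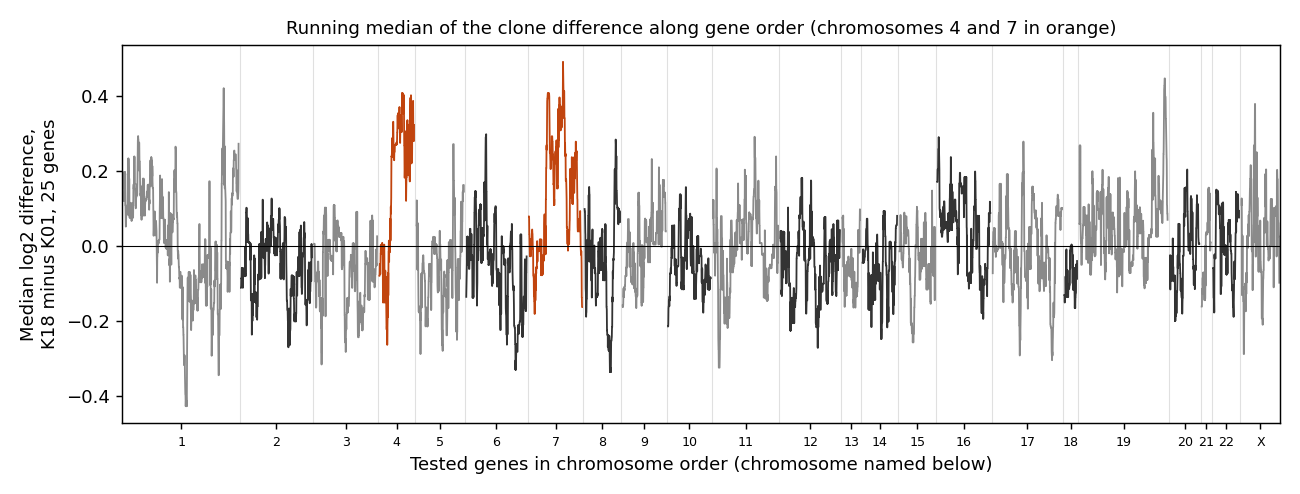
Median log2 difference (K18 minus K01) over 25 neighbouring tested genes, on the vertical axis, along gene order on each chromosome, on the horizontal axis. Chromosomes 4 and 7 (orange) are near or below 0 at their start and lie mostly above 0 from there on, and single runs on chromosomes 1, 19 and X stand out in either direction.

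TET2 lies in the raised stretch of chromosome 4. Of its 24 nearest tested genes 22 had a log2 difference above 0, with a median of 0.29; TET2 itself had 0.37. The 5 called neighbours were all higher, beside 6.84% higher and 8.20% lower over all tested genes. OSTC, a subunit of the oligosaccharyltransferase complex, was at 118 and 123 against 72.2 and 82.7 FPKM, and RPL34, a ribosomal protein, at 563 and 552 against 409 and 440 FPKM; these 2 kept the call without any 1 library. PAPSS1, which makes the sulphate donor, was at 22.0 and 18.7 against 13 and 13.1 FPKM and kept it in 3 of 4 fits, while LAMTOR3 and UBE2D3 kept it in 0. The 24 genes around KIT, also on chromosome 4, had a median of 0.27, far below the difference of KIT itself (log2 difference 3.48, SE 0.23). AFF1, a transcription elongation factor gene at 13 and 14.7 against 4.99 and 5.67 FPKM, and RPS3A, at 1740 and 1667 against 1326 and 1395 FPKM, also stand on this chromosome.

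**Figure D5:**
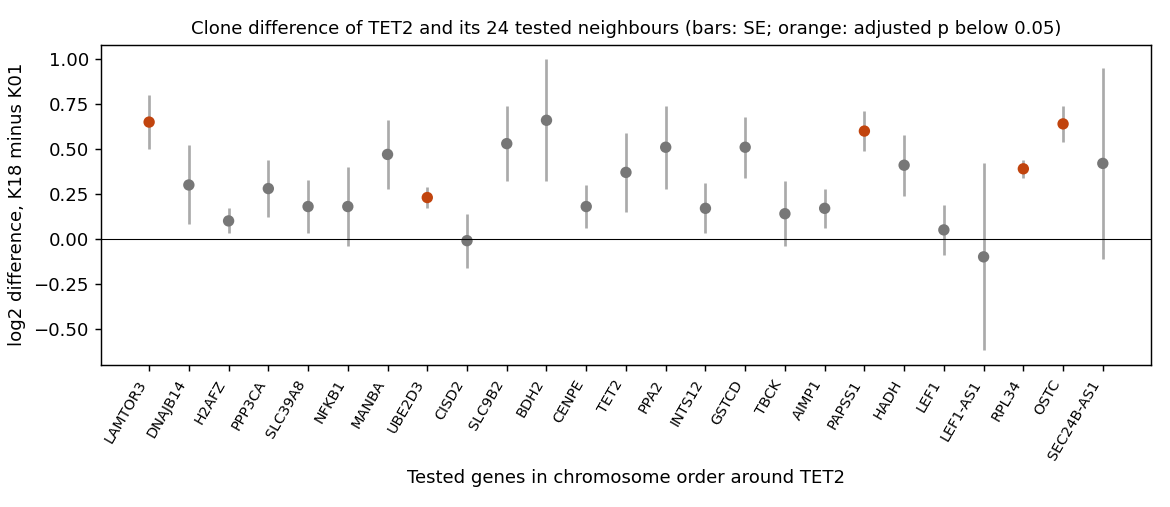
Log2 difference (K18 minus K01, bars of 1 SE) of TET2 and its 24 nearest tested genes in chromosome order. Of the neighbours 22 lie above 0, CISD2 and LEF1-AS1 lie below it, and the 5 called genes are orange.

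Shorter runs of 25 neighbouring genes with a shared direction were found elsewhere. Their counts of called genes stand beside 6.84% higher and 8.20% lower over all tested genes. The run from DCLRE1B to WARS2-IT1 on chromosome 1 had a median of -0.43, with 14 genes lower and 0 higher. In it CD58, the ligand of CD2, was at 12.2 and 7.61 against 28.3 and 25.9 FPKM, PTGFRN at 6.20 and 6.21 against 12.1 and 12.1 FPKM, and TTF2 at 12.7 and 13.9 against 23 and 23.9 FPKM. Another lower run of chromosome 1, from COLGALT2 to NEK7, had a median of -0.34 with 10 genes lower. Higher runs without a lower gene were MOSPD3 to ORAI2 on chromosome 7 (median 0.49, 9 higher) and ATP2B4 to IKBKE on chromosome 1 (median 0.42, 8 higher). The first holds the neuropeptide precursor VGF (6.78 and 6.79 against 1.68 and 1.86 FPKM), for which treated K01 libraries reached 13.5 FPKM. The second holds RAB29, at 11.1 and 10.7 against 5.01 and 5.01 FPKM. AURKC stands in a run on chromosome 19, from ZNF542P to ZNF211, with a median of 0.45 and 4 genes higher. Around HBE1 on chromosome 11 the 24 nearest tested genes had a median of -0.32 with 20 below 0. These neighbours include other globins of the same cluster, described above. Around ACTL8 on chromosome 1 the median was 0.08. Over all 11669 runs of 25 genes, 2.11% had a median of at least 0.3 and 0.574% a median of at most -0.3. The genes around which neighbours were counted were chosen after their values were seen.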

How the data were processed

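Per the labels, K18 and K01 cells were treated for 24 h and oligo(dT)-enriched RNA was sequenced. The deposited values are FPKM made by the authors, whose processing notes, per the labels, name the hg19 genome, STAR, edgeR 3.24.3 and limma 3.38.3 without a role; the counting program, strand setting and annotation are not given in the sources used here, and FPKM cannot be told from its single-read form. Groups came from the sample labels. All 10 single-sample files equalled the matrix. The 26 number-named and 2267 short RNA rows were left out, leaving 23878 of 26171. For the depth estimate, 90.7% of 1927 values up to 0.15 FPKM were whole multiples of 1 read, within 0.05 of a read.

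Values were tested as log2(FPKM + 1) with limma 3.58.1 (trend, robust) in R 4.3.3, checked on simulated data; tables used Python 3.11.15 with pandas 2.3.3. The comparison, the 31 gene lists and the naming rule were chosen with earlier results of these data known. The rule named TET1, TET2 and TET3; up to 12 called genes per direction by log2 difference, with a mean of at least 5 FPKM in the higher clone; up to 8 by FPKM difference; up to 6 called members per list and direction, or the 2 most abundant where none was called; up to 6 genes listed at 0 in 1 clone; and up to 4 genes in each of the 4 runs of neighbours with the largest medians. Loci without a gene name, antisense loci and short RNAs were skipped. Other genes named, among them list members beyond the rule, genes around TET2 and further runs, were chosen after their values were seen. Some eligible genes are not described. Replicate numbers did not pair the libraries. Alternatives were other pseudocounts, filters, scalings and model settings, a replicate block, the 4 DMSO libraries alone, other window sizes and leaving out each library. Gene order, names and promoter sequences came from RefSeq (GRCh38.p14), used for order and sequence only because the values were made on hg19; 842 genes matched through a synonym.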

Additional observations from a re-analysis of the deposited data

How the results depend on the processing

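Leaving out 1 library gave 350 to 451 genes higher and 433 to 525 lower, and 210 to 235 and 149 to 165 at least 2-fold higher and lower. A filter of 5 FPKM in 2 libraries gave 178 and 119 at least 2-fold higher and lower. Requiring called genes to lie outside all K01 libraries by at least 1.5-fold left 243 higher and 121 lower. With 0.5 FPKM as the minimum in the other clone, 67 genes were listed at 0 in K01 and 18 in K18. In runs of 15 genes, 3.37% had a median of at least 0.3 and 1.82% of at most -0.3. Under the other settings the counts of higher and lower genes stayed within 1.5 times those reported; quantile normalization gave 835 higher and 827 lower. Of the 225 called genes named by the rule, 70 to 82 lost the call without 1 library, 29 under quantile normalization, 24 with no filter on low values, 17 in the 4 DMSO libraries alone and at most 10 under each other setting; 0 changed direction. Of those that kept it without any 1 library, RPLP2 and RPS16 lost it under quantile normalization. Uncalled differences changed sign for CD3D (-0.14 to 0.34 over the fits without 1 library), TET1 (-0.03 under quantile normalization) and TET3 (-0.12 to 0.02 over those without 1 library); the cause was not tested. Libraries of 7.03 to 9.24 M reads (M, mega) limit genes near 1 FPKM.

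Samples with the same replicate number did not deviate together (correlation 0.004 over 12537 genes). A replicate block gave 793 genes higher and 951 lower, with 305 and 193 at least 2-fold.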
